A study of Rattus norvegicus with 6 samples.

Results

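The 38 genes described here are the enzymes of glycolysis and a set of genes known to respond to low oxygen. They were chosen by name, and a row of the deposited count table was taken as a member when its gene symbol was on the list. Of the 38 names, 35 matched, giving 36 of 18718 rows, because Pkm is listed in 2 rows. The names Slc16a3, Car12 and Egln1 matched no row and were not analysed here. The cells are HEI-OC1, an established line derived from the auditory organ of the mouse that is used as a model of auditory hair cells. The labels give the organism as rat; which species the reads came from was not tested. One group of 3 libraries received an siRNA against Hnrnpd (labelled AUF1 knock down) and the other group of 3 a control siRNA. Below they are called siHnrnpd 1 to 3 and control 1 to 3. Both groups come from the same line, in serum-containing medium under ordinary culture conditions, and neither label mentions an oxygen or glucose treatment. The labels do not say whether replicates were separate cultures, so the p-values rest on library-to-library spread that could be technical.

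Glycolysis splits glucose into pyruvate in the cytosol, and lactate dehydrogenase turns pyruvate into lactate so that the pathway can run without oxygen. When oxygen is low, the prolyl hydroxylases that mark HIF-1 alpha for destruction slow down. The transcription factor then accumulates and switches on glycolytic enzymes, glucose transporters and genes for blood vessel growth, acid export and mitochondrial turnover. Much of this control acts on the HIF protein, so the mRNA of Hif1a need not follow it. Hnrnpd encodes AUF1, a protein that binds AU-rich stretches in mRNA and alters their decay.

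The libraries held 28984535 to 35842904 gene counts. Hnrnpd, the siRNA target, had 269 to 319 CPM (read counts scaled to TMM-adjusted library sizes) in the control libraries. It had 177, 200 and 183 CPM in siHnrnpd 1 to 3, a log2 change of -0.67 with an SE of 0.082 (edgeR adjusted p = 0.0426). This call was lost on log2(FPKM + 1) by limma (adjusted p = 0.0508) and without any single library other than siHnrnpd 2 (edgeR adjusted p of 0.0508 to 0.319). Of 10 hair cell markers, 8 matched a row and Myo6 was the one with a mean of at least 1 FPKM. Slc26a5 and Otof, which encode hair cell proteins for motility and transmitter release, had control means of 0.013 and 0.017 FPKM. Of 11 fibroblast and mesenchymal markers, 7 had a mean of at least 1 FPKM. Vim and Col1a1 were the highest, with 1842 ± 38.9 and 306 ± 32.8 FPKM in the controls (SD, n = 3). Col1a2, Dcn, Acta2 and Postn had control means of 0.60, 0.073, 0.057 and 0.053 FPKM. SiHnrnpd 3 had the lowest Cxcl10, an interferon-induced gene, at 1047 CPM, against 1477 and 1649 in siHnrnpd 1 and 2 and 2417 to 3094 in the controls. Its 11 fibroblast and mesenchymal markers summed to 2985 FPKM, against 2396 to 2627 in the other 5 libraries, and Vim alone made up 2121 of this, against 1668 to 1873. Its supporting cell markers summed to 79.2 FPKM, against 58.7 to 71.3. Cdkn1b made up 38.8 of this and Hes1 26.5, against 28.1 to 38.7 and 16.5 to 19.6 in the other libraries. Slc1a3 lay below every control in all 3 siHnrnpd libraries, at 9.34, 9.8 and 10.1 FPKM in siHnrnpd 1 to 3 against 10.9 to 12.4 FPKM. Jag1, at 2.86 FPKM in siHnrnpd 3, lay within the control range. Over the genes tested the chi-square per degree of freedom was 34.5 and 30.4 between siHnrnpd 3 and siHnrnpd 1 and 2, and 26.0 between these. Between pairs of controls it was 11.8, 17.8 and 39.4. Against the controls it was 32.1 to 44.8 for siHnrnpd 3, 21.7 to 64.0 for siHnrnpd 1 and 15.5 to 26.9 for siHnrnpd 2. The part of these differences in the results below was not tested. In bulk libraries, more RNA per cell and more cells that express a gene cannot be told apart.

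Levels between genes are compared on FPKM, a scale per gene length. Since a line of mouse origin was aligned to a rat build, per the submitters' processing notes, the level of any gene may depend on how well its reads matched, which was not tested, and the order of levels is uncertain. Glycolytic enzymes held the highest levels among the members. Gapdh, which oxidises glyceraldehyde 3-phosphate, had 2720.0 ± 105 FPKM in the control libraries (SD, n = 3, as for the values that follow). Next came Ldha, the A subunit of lactate dehydrogenase, at 1003 ± 49.8 FPKM and the aldolase Aldoa at 959 ± 64.3 FPKM, and the values of these neighbours overlapped. Eno1, an enolase, had 765 ± 55.4 FPKM, and Pgk1, the first ATP-forming enzyme of the pathway, had 627 ± 34.9 FPKM. The Pkm row on chromosome 8, for pyruvate kinase, had 566 ± 9.31 FPKM and the mutase Pgam1 547 ± 14.0 FPKM, again with overlapping values. The other Pkm row, on chromosome 20, had 244 ± 19.4 FPKM. The upper steps lay lower: Gpi at 176 ± 11.7 FPKM, the phosphofructokinases Pfkl, Pfkp and Pfkm at 82.1 ± 5.22, 49.3 ± 0.53 and 28.6 ± 0.68 FPKM, and the hexokinases Hk1 and Hk2 at 33.0 ± 1.02 and 10.96 ± 0.56 FPKM. Tpi1, triosephosphate isomerase, was listed at 21.99 ± 1.52 FPKM, far below the enzymes on either side of it in the pathway. The brain forms Aldoc and Eno2 were near the floor, at 0.77 ± 0.21 and 0.047 ± 0.015 FPKM.

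**Figure D1:**
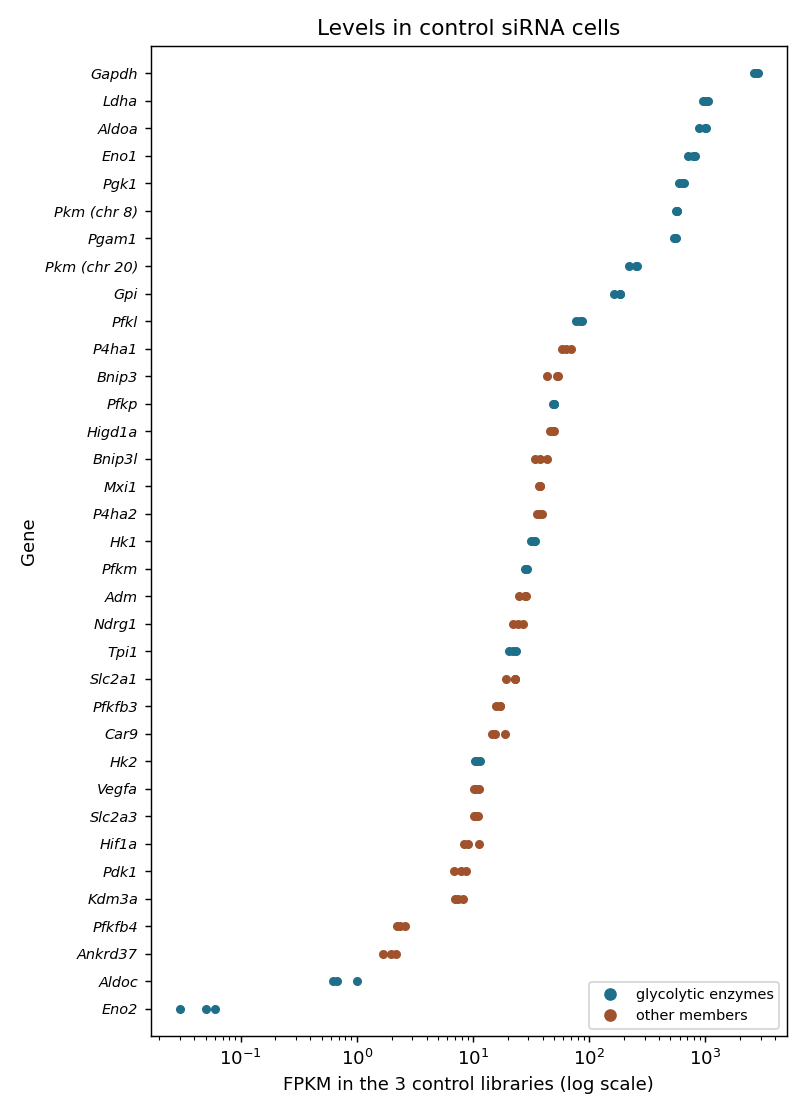
FPKM of each member in the 3 control libraries (points, log axis), sorted by mean, with glycolytic enzymes in blue and other members in brown. Gapdh lies highest at a mean of 2720.0 FPKM, and P4ha1 at 63.8 FPKM is the highest of the other members. Egln3, listed at 0 in all 3, is left out.

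Outside the enzymes, P4ha1, an alpha subunit of the collagen prolyl hydroxylase, was the highest member at 63.8 ± 5.58 FPKM. Bnip3, Higd1a, Bnip3l, Mxi1 and P4ha2 followed between 37.2 and 49.96 FPKM. Car9, the membrane carbonic anhydrase that is among the most used markers of hypoxia, had 16.3 ± 2.28 FPKM in the controls. Hif1a itself had 9.55 ± 1.51 FPKM. Egln3, a prolyl hydroxylase that HIF induces in many cells, had 0 counts in every control library and in siHnrnpd 1, and 1 and 3 counts in siHnrnpd 2 and 3.

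The comparison of the groups asks which of these mRNAs change level when Hnrnpd is reduced. After the filter on low counts, 34 of the 36 rows were tested, and Eno2 and Egln3 were not. By edgeR 0 members were called at an adjusted p under 0.05, where 0.0815% of the 12268 genes tested were called, 0.0245% higher and 0.0571% lower. With an unadjusted p under 0.05, 14 members were higher in siHnrnpd and 2 lower, against a background of 5.84% higher and 5.2% lower over all genes tested. Limma-voom called 0 members. DESeq2 called 5: Aldoa, Eno1, Slc2a1 and Car9 higher (background 0.48%) and Pfkfb3 lower (background 0.934%). The count of 14 changed as single libraries were left out, shown here with the same count over all genes tested in brackets. It was 7 without control 1 (419 of 12431 genes), 10 without control 2 (365 of 12449) and 9 without control 3 (1096 of 12393). It was 6 without siHnrnpd 1 (488 of 12389), 6 without siHnrnpd 2 (664 of 12367) and 22 without siHnrnpd 3 (613 of 12444). In the last of these fits edgeR called Car9 (log2 change 0.94, adjusted p = 0.0429), and it called 0 members without any other library.

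A positive log2 change was found in 24 of the 34 tested members, against 51.7% of all genes, and the median over the 34 was 0.23 against 0.0054 over all genes. SiHnrnpd 1 and 2 lay above every control in 22 members (background 14.4%). Over all genes tested this held for 1770, with siHnrnpd 3 inside the control range in 484 of these and above it in 1033. In 9 of the 22 members siHnrnpd 3 lay inside the control range (background 3.95%, a share of all 12268 genes tested). In 7 it lay below that range and in 6 above it. The groups therefore did not overlap in 6 members with higher values, Eno1, Slc2a1, Car9, Vegfa, P4ha2 and Ankrd37 (background 8.42%), and in 3 with lower values, Slc2a3, Pfkfb3 and Pfkfb4 (background 8.57%).

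**Figure D2:**
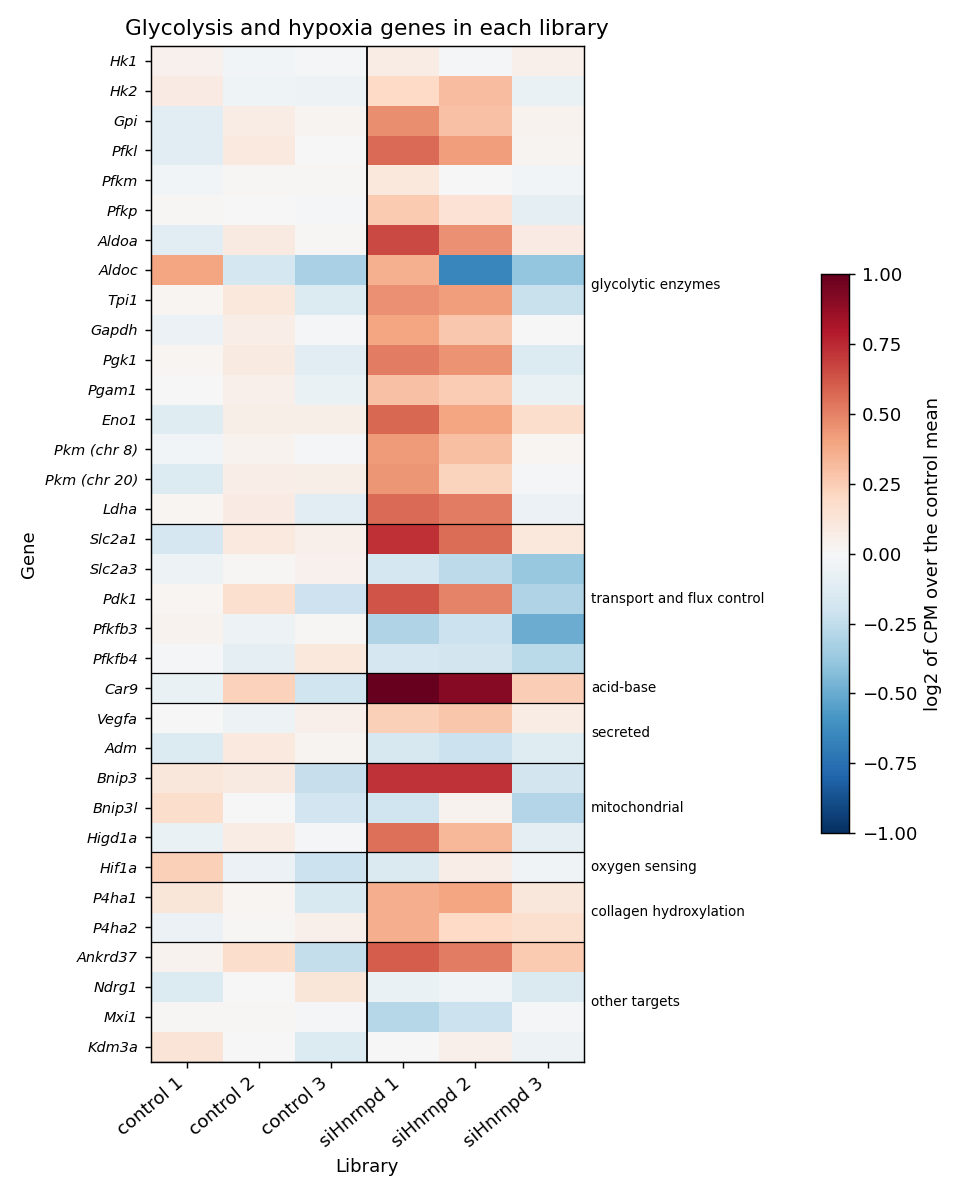
Log2 of the CPM of each tested member over its mean in the controls (colour), with genes in rows ordered by role and the 6 libraries in columns. The columns of siHnrnpd 1 and 2 are red across most glycolytic enzymes, with medians of 0.43 and 0.30, while siHnrnpd 3 is near white, with a median of -0.022.

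Promoters of 4 members are shown because these genes cover the range of the changes: Car9 has the highest log2 change, Ldha and Bnip3 follow the pattern of siHnrnpd 1 and 2, and Pfkfb3 has the lowest log2 change. Each sequence is the 250 bases before the gene's start in the rat RefSeq assembly GRCr8, on the gene's strand, with capitals at the core of the HIF-binding element, ACGTG or GCGTG on either strand.
Ldha, chr1:106507842-106508091, + strand: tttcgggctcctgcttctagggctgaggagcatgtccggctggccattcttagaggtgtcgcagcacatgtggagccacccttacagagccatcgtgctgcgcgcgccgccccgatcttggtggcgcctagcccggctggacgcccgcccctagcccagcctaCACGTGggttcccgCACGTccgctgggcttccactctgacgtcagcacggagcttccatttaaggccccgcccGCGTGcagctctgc
Bnip3, chr1:203154963-203155212, - strand: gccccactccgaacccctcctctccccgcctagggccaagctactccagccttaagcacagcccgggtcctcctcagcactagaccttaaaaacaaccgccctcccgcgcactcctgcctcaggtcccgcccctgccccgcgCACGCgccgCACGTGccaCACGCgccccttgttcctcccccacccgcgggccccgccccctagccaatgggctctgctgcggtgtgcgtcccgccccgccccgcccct
Pfkfb3, chr17:71944683-71944932, + strand: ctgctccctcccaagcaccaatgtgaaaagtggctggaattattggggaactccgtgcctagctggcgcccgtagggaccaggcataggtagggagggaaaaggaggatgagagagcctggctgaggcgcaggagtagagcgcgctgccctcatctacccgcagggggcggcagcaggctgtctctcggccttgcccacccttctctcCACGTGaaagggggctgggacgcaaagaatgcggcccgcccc
Car9, chr5:62558774-62559023, + strand: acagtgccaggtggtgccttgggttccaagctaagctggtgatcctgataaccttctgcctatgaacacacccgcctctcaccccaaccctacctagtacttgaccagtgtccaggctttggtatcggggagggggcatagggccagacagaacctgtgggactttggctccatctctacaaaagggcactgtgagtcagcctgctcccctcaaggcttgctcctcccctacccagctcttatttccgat

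In these windows Ldha and Bnip3 each held 4 matches, between 87 and 14 and between 108 and 90 bases before the start, and Pfkfb3 held 2. A CACGTG, which is also the element bound by MYC and MAX, counts as 2 matches because it reads as ACGTG on both strands. The Car9 window held 0 matches. Each window ends at the annotated gene start, and bases after it were not searched, so a match outside the window would be missed. Of the 35 names found, 31 had a promoter in the table, and 19 of these (61.3%) held at least 1 match, against 36.7% of all 33469 promoters over the same length. The 33469 promoters were not limited to genes expressed in these cells, as most members are, so these shares cover unlike sets of genes. Among the members the share was 9 of 15 for glycolytic enzymes and 10 of 16 for the other members. A match is a string of letters in a rat sequence, and the binding of HIF was not measured. Within these windows, genes with and without a match are found among those with a positive log2 change, as Ldha and Car9 show. Pfkfb3, with 2 matches, had the lowest log2 change.

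Among the glycolytic enzymes, 15 of 16 tested rows had a positive log2 change (background 51.7%), with a median of 0.24. By edgeR 0 of the 16 were called (background 0.0815%). An unadjusted p under 0.05 was found for 7 higher and 0 lower ones (backgrounds 5.84% and 5.2%). Leaving out siHnrnpd 1 lowered the median to 0.14. Aldoa, which cleaves fructose 1,6-bisphosphate, had 1678, 1931 and 1834 CPM in controls 1 to 3 and 2863, 2494 and 1922 CPM in siHnrnpd 1 to 3. SiHnrnpd 1 and 2 were high and siHnrnpd 3 lay just below control 2. Its log2 change was 0.42 (SE 0.13; edgeR adjusted p = 0.323; DESeq2 adjusted p = 0.0497).

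Eno1, which makes phosphoenolpyruvate, had 1563, 1764 and 1768 CPM in controls 1 to 3 and 2534, 2239 and 1914 CPM in siHnrnpd 1 to 3. It was the enzyme row whose groups did not overlap, and siHnrnpd 3 was again the lowest of its group. Its log2 change was 0.39 (SE 0.11; edgeR adjusted p = 0.261; DESeq2 adjusted p = 0.0213). Ldha had 1909, 1996 and 1754 CPM in the controls and 2787, 2689 and 1813 CPM in siHnrnpd 1 to 3. SiHnrnpd 1 and 2 were about alike, siHnrnpd 3 sat inside the control range, and its log2 change was 0.37 (SE 0.15; edgeR adjusted p = 0.409).

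Pgk1 had 1264, 1328 and 1153 CPM in the controls and 1776, 1706 and 1137 CPM in siHnrnpd 1 to 3, so that siHnrnpd 3 was the lowest of all 6 libraries. Tpi1, Pgam1, Hk2 and Pfkp showed the same order, with siHnrnpd 1 and 2 above the controls and siHnrnpd 3 below them. Their log2 changes were 0.25, 0.17, 0.15 and 0.11, and that of Pgk1 was 0.30 (edgeR adjusted p of 0.495 to 0.680 for the 5 genes). In Gpi, Pfkl, Gapdh and both Pkm rows siHnrnpd 3 lay within the control range, with log2 changes of 0.23 to 0.35. Gapdh is widely used as a reference gene for normalization. It had 3069.7, 3356 and 3179.8 CPM in the controls and 4213, 3859 and 3212 CPM in siHnrnpd 1 to 3, a log2 change of 0.23 with an SE of 0.10 (edgeR adjusted p = 0.445). Hk1 and Pfkm were the flattest enzyme rows, with log2 changes of 0.034 and 0.028. For Pfkm, siHnrnpd 3 and control 1 were the lowest libraries, both at 97.8 CPM. Aldoc had 32 to 68 counts per library, 42 to 58 of them in the controls, and its log2 change of -0.15 had an SE of 0.30.

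The 17 enzyme rows together took 1.36%, 1.45% and 1.40% of all gene counts in the control libraries, against 1.94%, 1.80% and 1.46% in siHnrnpd 1, 2 and 3. The Wilson 95% intervals of these shares cover counting error only, and the widest ran from 1.94% to 1.95%. SiHnrnpd 3 lay just above control 2 by this measure, with intervals of 1.46% to 1.47% and 1.45% to 1.46%. The 19 other rows took 0.121% to 0.127% in the controls and 0.143%, 0.143% and 0.122% in siHnrnpd 1 to 3.

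**Figure D3:**
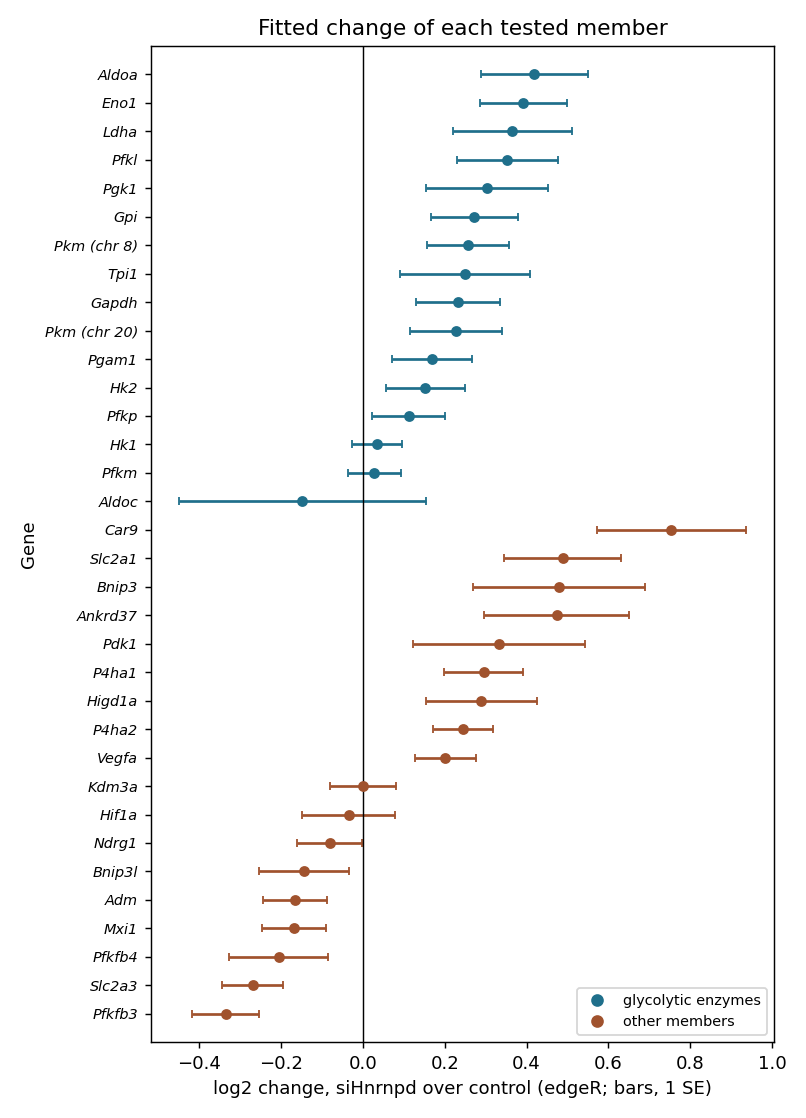
Fitted log2 change of each tested member, siHnrnpd over control (points, edgeR, with bars of 1 SE), with glycolytic enzymes in blue and other members in brown, each sorted by change. The enzymes spread from -0.15 to 0.42 with 15 of 16 above 0, while the other members spread from -0.34 to 0.75 with 9 of 18 above 0.

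The other members split evenly by sign, with 9 of 18 tested rows positive (background 51.7%), 9 negative and a median of 0.10. That median depends on the grouping: without the transporters, the regulators of flux and Hif1a, it was 0.22 over 12 rows, close to the 0.24 of the enzymes. Among these 12 rows Adm, Bnip3l, Ndrg1, Mxi1 and Kdm3a still had a negative log2 change, while among the enzymes Aldoc alone did. The difference between the enzymes and the other members was not tested. The other members held both ends of the range. By edgeR 0 were called (background 0.0815%). An unadjusted p under 0.05 was found for 7 with a higher and 2 with a lower level (backgrounds 5.84% and 5.2%).

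Genes for glucose uptake and for the control of flux lay on both sides of the controls. Slc2a1, the main glucose transporter of most cultured cells, had 58.9, 70.7 and 68.6 CPM in controls 1 to 3 and 109.7, 97.1 and 71.1 CPM in siHnrnpd 1 to 3. The groups did not overlap, but siHnrnpd 3 exceeded control 2 by under 1 CPM, and the log2 change of Slc2a1 was 0.49 (SE 0.14; edgeR adjusted p = 0.295; DESeq2 adjusted p = 0.0331). Slc2a3, a glucose transporter of high affinity, had 47.1, 49.1 and 50.1 CPM in the controls and 43.2, 40.7 and 37.4 CPM in siHnrnpd 1 to 3. Here all 3 siHnrnpd libraries were lower and siHnrnpd 3 was the lowest, with a log2 change of -0.27 and an SE of 0.074 (edgeR adjusted p = 0.264).

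Pfkfb3, whose product makes fructose 2,6-bisphosphate and so activates phosphofructokinase, had 94.0, 88.8 and 92.6 CPM in the controls and 74.3, 79.0 and 64.9 CPM in siHnrnpd 1 to 3. All siHnrnpd libraries lay below all controls, and its log2 change was -0.34 (SE 0.081; edgeR adjusted p = 0.203; DESeq2 adjusted p = 0.0238). Its relative Pfkfb4 had 5.39 to 6.17 CPM in the controls and 4.78 to 5.11 CPM in siHnrnpd, again without overlap (log2 change -0.21, SE 0.12). Pdk1, the kinase that shuts off pyruvate dehydrogenase, had 14.8, 16.3 and 12.6 CPM in the controls and 22.5, 20.5 and 11.8 CPM in siHnrnpd 1 to 3. It showed the order of Pgk1: siHnrnpd 1 and 2 were above every control and siHnrnpd 3 was below every control (log2 change 0.33, SE 0.21, edgeR adjusted p = 0.590).

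Shares within 4 isozyme families were compared on FPKM, with exact two-sided permutation tests of 3 against 3 libraries, which cannot give a p under 0.1. Slc2a1 made up 67.3% ± 1.58 of the summed FPKM of Slc2a1 and Slc2a3 in the controls and 77.4% ± 2.71 in siHnrnpd (SD, n = 3 each), without overlap (exact permutation p = 0.1, adjusted over the 4 families 0.2). In siHnrnpd 1 to 3 the share was 79.4%, 78.4% and 74.3%, against a control maximum of 68.7%. Since Slc2a1 was higher and Slc2a3 lower without overlap, the separation of the shares and its p were fixed by those values. They are no further support. Pfkl made up 51.3% ± 1.64 of phosphofructokinase in the controls and 55.8% ± 2.44 in siHnrnpd (exact permutation p = 0.1, adjusted 0.2). The Pfkl share was 57.5%, 56.8% and 52.98% in siHnrnpd 1 to 3, so siHnrnpd 3 barely exceeded the control maximum of 52.89%. Hk1 held 75.1% ± 0.51 of hexokinase in the controls and 73.5% ± 2.95 in siHnrnpd (exact permutation p = 0.5), and P4ha1 63.1% ± 3.14 and 63.9% ± 2.07 of the collagen hydroxylase subunits (exact permutation p = 0.8).

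Car9 had the largest log2 change among the tested members. It had 37.7, 46.3 and 34.5 CPM in controls 1 to 3 and 78.6, 74.3 and 46.8 CPM in siHnrnpd 1 to 3. SiHnrnpd 1 and 2 were far above every control, while siHnrnpd 3 exceeded control 2 by less than 1 CPM. The log2 change of Car9 was 0.75 (SE 0.18; edgeR adjusted p = 0.203; DESeq2 adjusted p = 0.0011). It ran from 0.62 to 0.94 as single libraries were left out.

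**Figure D4:**
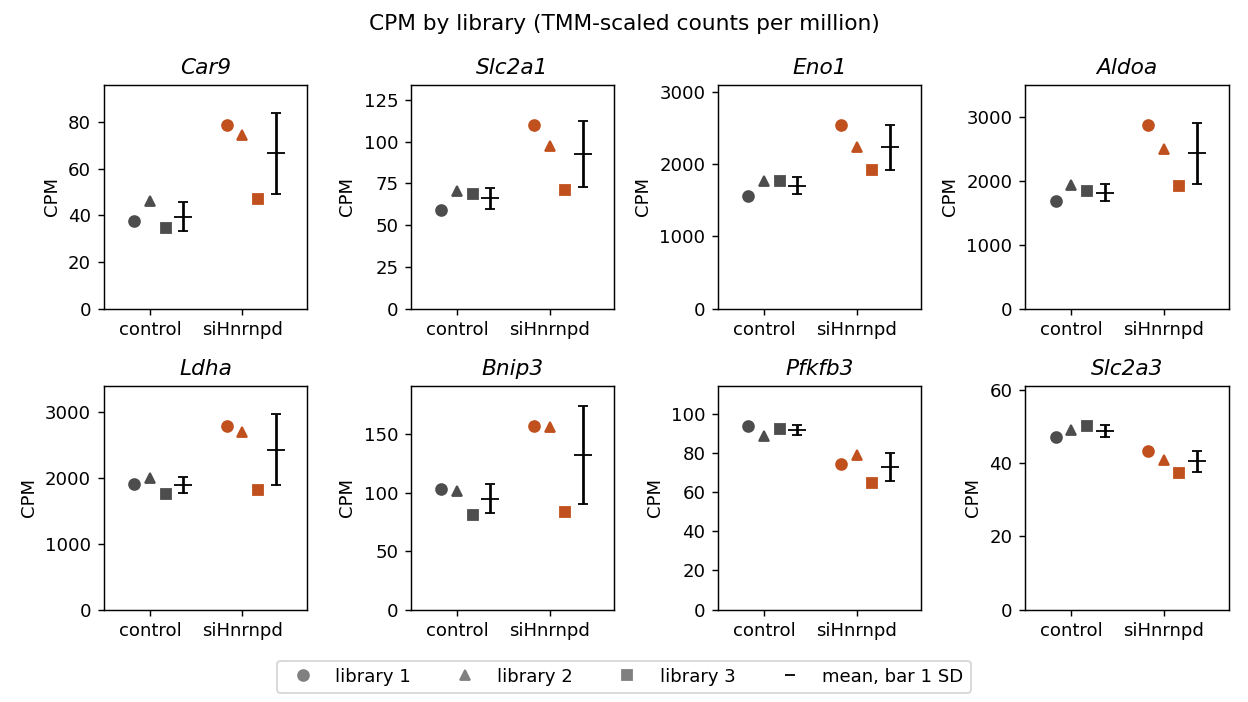
CPM by library for 8 members (points), with a black mark for the mean and a bar of 1 SD. Circle, triangle and square are libraries 1, 2 and 3 of each group, which were not treated as pairs. In Car9, Slc2a1, Eno1, Aldoa, Ldha and Bnip3 the square of siHnrnpd lies near the controls, while in Pfkfb3 and Slc2a3 all 3 siHnrnpd points lie below the controls.

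Of the secreted factors, Vegfa, the growth factor for blood vessels, had 44.3, 42.8 and 46.0 CPM in the controls and 52.4, 53.9 and 46.8 CPM in siHnrnpd 1 to 3. The groups did not overlap, by less than 1 CPM, and its log2 change was 0.20 (SE 0.075; edgeR adjusted p = 0.375). Adm, which encodes the vasodilator peptide adrenomedullin, went the other way, with 40.2 to 47.3 CPM in the controls, 38.1 to 40.7 CPM in siHnrnpd and a log2 change of -0.17 (edgeR adjusted p = 0.463).

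Among the mitochondrial members, Bnip3, a receptor that directs mitochondria to autophagy, had 102.9, 101.4 and 80.9 CPM in the controls and 157.2, 156.5 and 83.8 CPM in siHnrnpd 1 to 3. The siHnrnpd group was split, with siHnrnpd 1 and 2 within 1 CPM of each other and siHnrnpd 3 inside the control range. Its log2 change was 0.48 (SE 0.21; edgeR adjusted p = 0.443), and without siHnrnpd 3 it was 0.71. Its paralog Bnip3l, which shares that role, had 126.8 to 163.5 CPM in the controls and 126.6, 148.7 and 118.2 CPM in siHnrnpd 1 to 3, overlapping groups with siHnrnpd 3 the lowest (log2 change -0.14). Higd1a, a small inner membrane protein, had 82.9 to 91.1 CPM in the controls and 127.1, 108.9 and 81.4 CPM in siHnrnpd 1 to 3, with siHnrnpd 3 just below the controls (log2 change 0.29, edgeR adjusted p = 0.469).

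P4ha1 and P4ha2 encode the catalytic subunits that hydroxylate proline in collagen. P4ha2 had 101.8, 106.9 and 109.8 CPM in the controls and 136.8, 121.6 and 118.9 CPM in siHnrnpd 1 to 3, without overlap and with siHnrnpd 3 close to siHnrnpd 2 (log2 change 0.24, SE 0.074, edgeR adjusted p = 0.312). P4ha1 had 142.7 to 173.1 CPM in the controls and 204.7, 208.5 and 171.8 CPM in siHnrnpd 1 to 3, with siHnrnpd 3 inside the control range (log2 change 0.30, edgeR adjusted p = 0.325). Ankrd37, a small ankyrin repeat protein, had 59 to 70 counts in the controls and 106, 94 and 78 counts in siHnrnpd 1 to 3, without overlap (log2 change 0.47, SE 0.18, edgeR adjusted p = 0.381).

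Other well-known HIF targets lay near or below the controls. Ndrg1, a stress-induced gene, had 76.1 to 90.9 CPM in the controls and 80.1, 81.7 and 75.6 CPM in siHnrnpd 1 to 3, with siHnrnpd 3 just below the controls (log2 change -0.081). Kdm3a, a histone H3K9 demethylase, had 37.8 to 45.4 CPM in the controls and 40.2 to 43.1 CPM in siHnrnpd, all inside the control range. Mxi1, an antagonist of MYC that binds MAX, had 127.7 to 130.5 CPM in the controls and 106.5, 111.5 and 127.9 CPM in siHnrnpd 1 to 3. In Mxi1 siHnrnpd 1 and 2 lay below every control, while siHnrnpd 3 sat among them (log2 change -0.17, edgeR adjusted p = 0.464).

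Hif1a had 52.7, 42.9 and 38.6 CPM in the controls and 40.4, 46.8 and 43.7 CPM in siHnrnpd 1 to 3, all within the control range, with a log2 change of -0.035 and an SE of 0.11. In a list of 19 genes of oxygen sensing and the HIF complex, 17 rows were tested. Of these 9 were positive (background 51.7%) and 8 negative, with a median of 0.013. By edgeR 0 were called (background 0.0815%). In either direction 0 had an unadjusted p under 0.05 (backgrounds 5.84% higher and 5.2% lower). DESeq2 also called 0 (backgrounds 0.48% higher and 0.934% lower). Arnt, the partner of HIF-1 alpha, had 17.2 ± 1.20 CPM in the controls and 16.6 ± 0.45 CPM in siHnrnpd, and Vhl, the ligase subunit that recognises hydroxylated HIF, had 68.9 ± 3.47 and 63.0 ± 3.73 CPM (SD, n = 3 per group). The smallest p in this list belonged to Arnt2 (log2 change -0.17, edgeR adjusted p = 0.479), and Rack1 and Elob had log2 changes of 0.13 and 0.11. Hsp90aa1 had 1161 and 802 counts in control 2 and siHnrnpd 2 and 2 to 36 in the other 4 libraries. Epas1, which encodes HIF-2 alpha, had 0.090 ± 0.042 CPM in the controls and was below the filter. HIF protein was not measured.

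In a list of 40 further HIF targets, 33 rows were tested, 24 positive (background 51.7%) and 9 negative with a median of 0.094. By edgeR 0 were called (background 0.0815%). An unadjusted p under 0.05 was found for 4 higher and 0 lower ones (backgrounds 5.84% and 5.2%). DESeq2 called 2 higher, Stc1 among them, and 0 lower (backgrounds 0.48% and 0.934%). Stc1, which encodes the secreted hormone stanniocalcin, had 1.83, 1.51 and 1.30 CPM in the controls and 5.23, 4.89 and 1.38 CPM in siHnrnpd 1 to 3 (log2 change 1.32, SE 0.42, edgeR adjusted p = 0.323; DESeq2 adjusted p = 0.0335). Its low level repeated the split of Bnip3, with siHnrnpd 3 among the controls. Bhlhe40, a transcriptional repressor, had 8.97 to 9.58 CPM in the controls and 14.3, 13.3 and 10.4 CPM in siHnrnpd 1 to 3 (log2 change 0.44, edgeR adjusted p = 0.295). Rbpj, the DNA-binding factor of Notch signalling, differed in order, with siHnrnpd 3 the highest at 115.6 CPM (log2 change 0.27).

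The rest of glycolysis with pyruvate entry and the pentose phosphate pathway gave 28 tested rows. Of these 9 were positive (background 51.7%) and 19 negative, with a median of -0.054. By edgeR 0 were called (background 0.0815%). An unadjusted p under 0.05 was found for 1 higher and 1 lower row (backgrounds 5.84% and 5.2%). DESeq2 called 1 higher, Gpd1 (background 0.48%). Gpd1, which links glycolysis to glycerol phosphate, had 19.0 to 21.8 CPM in the controls and 27.0, 24.5 and 32.2 CPM in siHnrnpd 1 to 3 (log2 change 0.46, edgeR adjusted p = 0.203; DESeq2 adjusted p = 0.0216). SiHnrnpd 3 was the highest library for Gpd1, unlike for the core enzymes. Eno3, the muscle enolase, had 23.7 ± 0.34 CPM in the controls and 20.02 ± 1.41 CPM after the knockdown (SD, n = 3 per group; log2 change -0.24, edgeR adjusted p = 0.338), opposite in sign to Eno1. Pgls, of the pentose phosphate pathway, had a log2 change of 0.28, and Mpc1, a subunit of the mitochondrial pyruvate carrier, had -0.10. Among 13 tested rows of MYC, AKT, mTOR and AMPK genes, which also steer glycolysis, 5 were positive (background 51.7%) and 8 negative. Their median was -0.011. By edgeR 0 of them were called (background 0.0815%), and 0 by DESeq2 (backgrounds 0.48% higher and 0.934% lower). An unadjusted p under 0.05 was found for 0 higher rows and 1 lower row, Rheb (backgrounds 5.84% and 5.2%). Rheb, an activator of mTOR, had a log2 change of -0.19 (edgeR adjusted p = 0.377), and Max, Mlx and Rictor had -0.13, -0.11 and -0.17.

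Some enzyme rows may share reads with near copies, since abundant glycolytic genes have many processed copies in rodent genomes. The Pkm row on chromosome 20 had 595 ± 46.2 CPM in the controls beside 1422 ± 34.1 CPM for the row on chromosome 8, and their log2 changes were 0.23 and 0.26. A row named LOC685186, described as glyceraldehyde-3-phosphate dehydrogenase, had 1360 ± 94.0 CPM in the controls and 1535 ± 188 CPM after the knockdown (SD, n = 3 per group), a log2 change of 0.18 beside 0.23 for Gapdh. LOC100911515, described as triosephosphate isomerase, had 3.62 ± 0.39 CPM in the controls, and Tpi1 itself 37.3 ± 3.16 CPM. The levels of Gapdh, Pkm and Tpi1 are uncertain for this reason too. The LOC rows were named after their values were seen, as were Arnt, Epas1, Hsp90aa1 and Cxcl10.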

How the data were processed

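RNA of 6 HEI-OC1 libraries was sequenced. Per the submitters' processing notes, TopHat2 and mRatBN7.2 were used. Counter, strand setting and annotation: not given in the sources used here, so reads of a gene and its antisense or overlapping partner may be mixed. The authors deposited raw counts for 18718 genes and FPKM for 18628 genes. Columns were assigned by siRNA name and replicate number, and 0 were left over.

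The count model was edgeR 4.0.16 under R 4.3.3 (TMM scaling, filterByExpr, quasi-likelihood test on group). Its p-values were adjusted by Benjamini-Hochberg across 12268 genes, and a gene was called where the adjusted p was under 0.05. Alternatives were DESeq2 1.42.0, limma 3.58.1 (voom, log2(FPKM + 1), log2(FPKM + 0.1)), other scalings and filters, a replicate block, and leaving out each library. On the log2(FPKM + pseudocount) scale the change of low genes is understated. Scripts were tested on simulated data. Members, lists and rules were chosen with earlier results of these data known. All members found were named, and up to 4 genes with the smallest p from each further list, besides those stated; 1 gene under this rule is not reported here. Promoters are from RefSeq (GRCr8), matched by symbol.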

Additional observations from a re-analysis of the deposited data

How the results depend on the processing

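Under 16 alternatives, 30 of the 34 tested members kept the sign of their log2 change in every alternative that gave a value. Members called, 0 by edgeR, became 5 with DESeq2 and 3 with no filter (Car9, Eno1 and Slc2a1), and 0 to 1 as single libraries were left out. Genes called, 10 by edgeR, became 162 with DESeq2, 147 with no filter, 6 with upper-quartile scaling, 0 with limma on log2(FPKM + 1) with or without the minimum, 5 on log2(FPKM + 0.1), and 0 to 14 without single libraries. Hnrnpd kept its sign but passed the threshold less often: its log2 change was -0.65 on log2(FPKM + 1), with adjusted p of 0.0508 and 0.137 with and without the minimum, and -0.74 to -0.63 without single libraries, where it was called only without siHnrnpd 2. With the replicate number as a block, 0 genes were called, Hnrnpd had -0.67 (adjusted p = 0.0873), and 0 members were called. The correlations of same-numbered libraries were -0.26, 0.14 and 0.10 over 12268 genes. Since they were not all positive, the numbers were not taken to pair the libraries, and not every library correlated best with its own number. These correlations cannot show that same-numbered libraries were handled apart. Hsp90aa1 was high in control 2 and siHnrnpd 2 (1161 and 802 counts) and had 2 to 36 counts in the other libraries. Whether control 2 and siHnrnpd 2 were handled together was not tested.

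Kdm3a, at -0.00053, changed sign to 0.011 with upper-quartile scaling, 0.0058 with limma-voom, 0.0021 with the block, 0.016 on log2(FPKM + 1) with and without the minimum and 0.018 on log2(FPKM + 0.1). Without single libraries the values ran from -0.066 to 0.056 for Kdm3a, -0.13 to 0.089 for Hif1a, -0.50 to 0.078 for Aldoc and -0.013 to 0.043 for Pfkm. The median of the enzymes ran from 0.14 to 0.34 and that of the other members from 0.067 to 0.14. Leaving out the transporters, regulators of flux and Hif1a moved the latter to 0.22. Other causes of these shifts were not tested. With 3 libraries a group, and siHnrnpd 3 away from siHnrnpd 1 and 2 in many members, the spread within the group limits what the tests can show.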
